A study of Mus musculus with 24 samples.

Results

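The genes described here encode histone modifying enzymes, and they were chosen by gene name from the annotation of the array. The 49 genes comprise 16 methyltransferases, 10 demethylases, 5 acetyltransferases and 13 deacetylases, with 5 Polycomb partners that transfer no methyl or acetyl group kept as a class of their own. All 49 were on the array, with 130 of its 56605 probes. After the filter on dim probes, 47 of the 49 remained among the 18397 genes tested.

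The samples were pools of frozen expanded mouse blastocysts from a study of bisphenol A and membrane estrogen receptor activation. They fall into 6 conditions known by code, HC1 to HC6, with 4 pools each. A pool held 15 blastocysts, or 20 in HC6, and 2 ng of its total RNA was labelled with the dye Cy3 and hybridised to a one-colour Agilent array of its own. The sources used here do not give the strain, the agents, the doses or any shared treatment behind the codes, and no code is named as the control, so each condition was set against the other 5. The labels do not say whether the pools of a code came from separate animals, so the tests measure the spread between pools, which may be technical.

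Methyltransferases and acetyltransferases add methyl or acetyl groups to the tails and cores of histones, and demethylases and deacetylases take them off. Acetyl groups and some methyl groups mark active promoters and transcribed genes, while other methyl groups, placed by Polycomb and heterochromatin enzymes, mark silent ones. In the preimplantation embryo these marks are rebuilt after fertilisation and come to differ between the inner cell mass and the trophectoderm, the first lineages to separate.

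The signals below are normalized log2 signals, that is, the log2 of the processed spot intensity minus the 75th percentile of the array, so that 0 is the level of that percentile. Differences are log2 differences between a condition and the mean of the other 5 condition means, and a gene is represented by its brightest probe that passed the filter. Markers of the blastocyst were detected as labelled: 8 of 8 trophectoderm, 7 of 7 inner cell mass and 6 of 6 primitive endoderm genes had a probe well above background on all 24 arrays. Of 11 cumulus and granulosa markers 3 passed the filter, of 7 blood markers 2, and of 6 uterine epithelium markers 3. Amh, Fshr, Inha, Inhba, Star and Tnfaip6 of the cumulus and granulosa list, Alas2 and Hbb-bt of the blood list and Ltf of the uterine list were well above background on 0 arrays, whereas Foxl2, Amhr2, Ptprc, Spink1 and Wfdc2 were so on all 24. In pooled embryos, fewer cells of a type and less RNA per cell cannot be told apart.

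One pool stood apart from the rest before any comparison was made. HC5 replicate 4 had the lowest 75th percentile of processed signal, 65.06 against 79.74 to 176.8 on the other arrays, and 36.5% of its probes were well above background, against 35.9% to 47.5% on the others. Of the 46 members without a missing value, HC5 replicate 4 gave the lowest of the 24 signals for 17 and the highest for 8, so it was extreme for 54.3% of them, against 34.1% of all genes. Each of the other pools was extreme for at most 6 of the 46 members. The main results for HC5 are therefore given with and without it. Its mean deviation over the markers was -0.05 for the trophectoderm, -0.22 for the inner cell mass and -0.06 for the primitive endoderm, each within the range of the other pools. For the 2 tested blood markers its value was -0.73, below the -0.53 to 0.76 of the other pools, and for the cumulus and uterine markers it was 0.39 and 0.19, within their range. The part that signal, markers or other properties of this pool play in its member values was not tested.

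**Figure D1:**
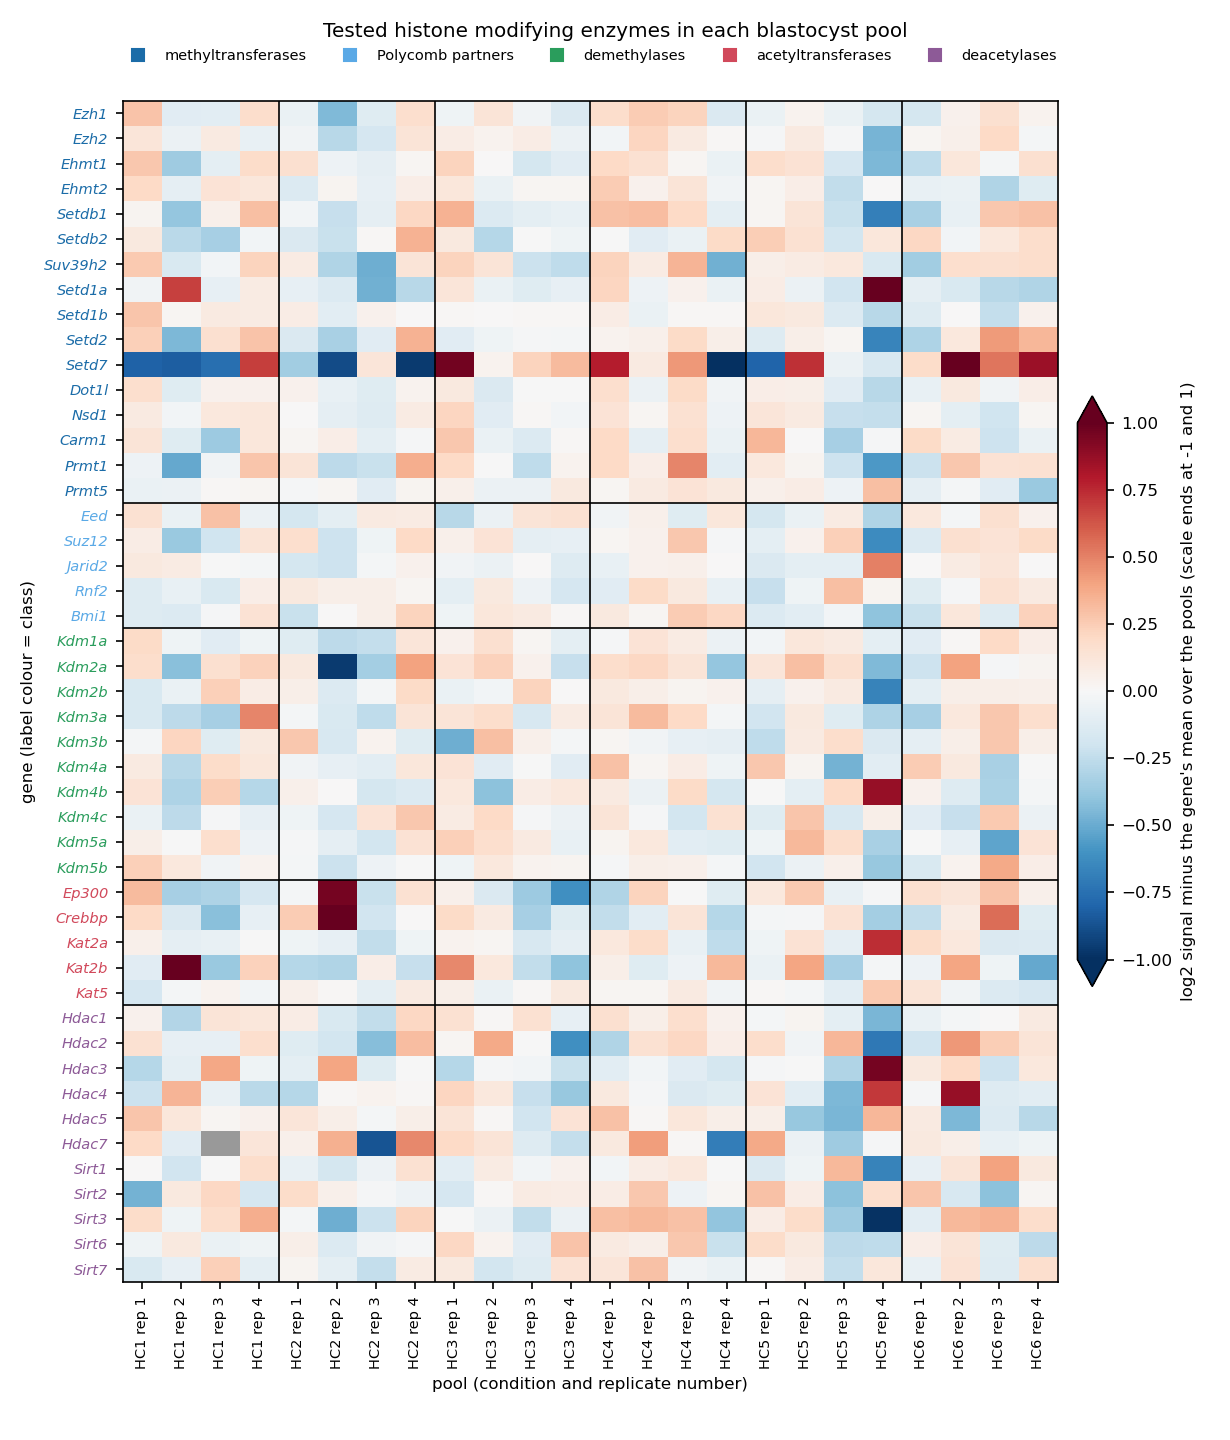
Each row is a tested member, coloured by class on the axis, and each column a pool; colour gives the log2 signal minus the member's mean over the pools, with the scale ending at -1 and 1 and a missing value in grey. HC5 replicate 4 is extreme for 25 of 46 members, with Setd1a at 2.95 the highest and Sirt3 at 0.41 the lowest of the 24 signals of each gene.

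Nearly all of the enzymes were detected in every pool. By the probe that represented the gene, 45 of the 47 tested members were well above background on all 24 arrays, against 13031 of the 18397 genes tested. Of the 49 members, 45 had a probe well above background on all 24 arrays, including 15 of the 16 methyltransferases, all 5 Polycomb partners, all 10 demethylases, all 5 acetyltransferases and 10 of the 13 deacetylases. The methyltransferases detected so were Ezh1, Ezh2, Ehmt1, Ehmt2, Setdb1, Setdb2, Suv39h2, Setd1a, Setd1b, Setd2, Dot1l, Nsd1, Carm1, Prmt1 and Prmt5. The Polycomb partners were Eed, Suz12, Jarid2, Rnf2 and Bmi1. The demethylases were Kdm1a, Kdm2a, Kdm2b, Kdm3a, Kdm3b, Kdm4a, Kdm4b, Kdm4c, Kdm5a and Kdm5b, and the acetyltransferases were Ep300, Crebbp, Kat2a, Kat2b and Kat5. The deacetylases were Hdac1, Hdac2, Hdac3, Hdac4, Hdac5, Sirt1, Sirt2, Sirt3, Sirt6 and Sirt7.

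The 4 other members are 3 deacetylases and 1 methyltransferase. Hdac7, a class IIa deacetylase, was well above background on 23 of 24 arrays, which are all the arrays on which it had a value. In HC1 replicate 3 its value was missing because outlier spots were left out, so this is not a dim signal. Setd7, a lysine methyltransferase that also modifies proteins other than histones, reached that level on 4 of 24 arrays through its single probe, so most of its values are background signals. Hdac9, a class IIa deacetylase best known from muscle and neurons, had 6 probes, of which the best was well above background on 1 array. The 2 probes of Hdac11, the class IV deacetylase, were well above background on 0 arrays. Hdac9 and Hdac11 were not tested, since signal this close to background does not show whether their transcripts were present.

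Probes of one gene often disagreed in detection. Of the 130 probes, 78 were well above background on all 24 arrays, 27 on 4 or fewer and 12 on 0. In 13 members one probe was well above background on 20 or more arrays and another on 4 or fewer. The shares of all probes and of all genes at these levels were not counted, so whether these counts are particular to the members is not known. Among the methyltransferases, Ezh1, a catalytic subunit of the Polycomb methyltransferase complex, had 1 probe at 24 arrays and 2 at 1. Ehmt1 and Setdb1, which place silencing methyl marks, each had 1 probe at 24 and 1 at 0, and Setd1a, which places methyl marks at active promoters, had 1 at 24 and 1 at 1. Setd2, which methylates histones over transcribed genes, had probes at 24, 24, 18, 2 and 0 arrays.

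The same was seen in the other classes. Of the demethylases, Kdm2a had probes at 24, 24, 23, 22, 20 and 0 arrays, Kdm3a at 24 and 2, and Kdm5a at 24, 24, 1, 1 and 0. Of the acetyltransferases, Ep300 had probes at 24, 24, 2 and 2 arrays and Crebbp at 24, 24 and 2. Of the deacetylases, Hdac4 had probes at 24, 18, 9 and 2 arrays, Sirt6 at 24 and 2, and Sirt7 at 24, 24, 20, 13 and 1. These probes were designed on different transcripts or on different stretches of one transcript, so a dim probe does not by itself set the level of the gene.

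**Figure D2:**
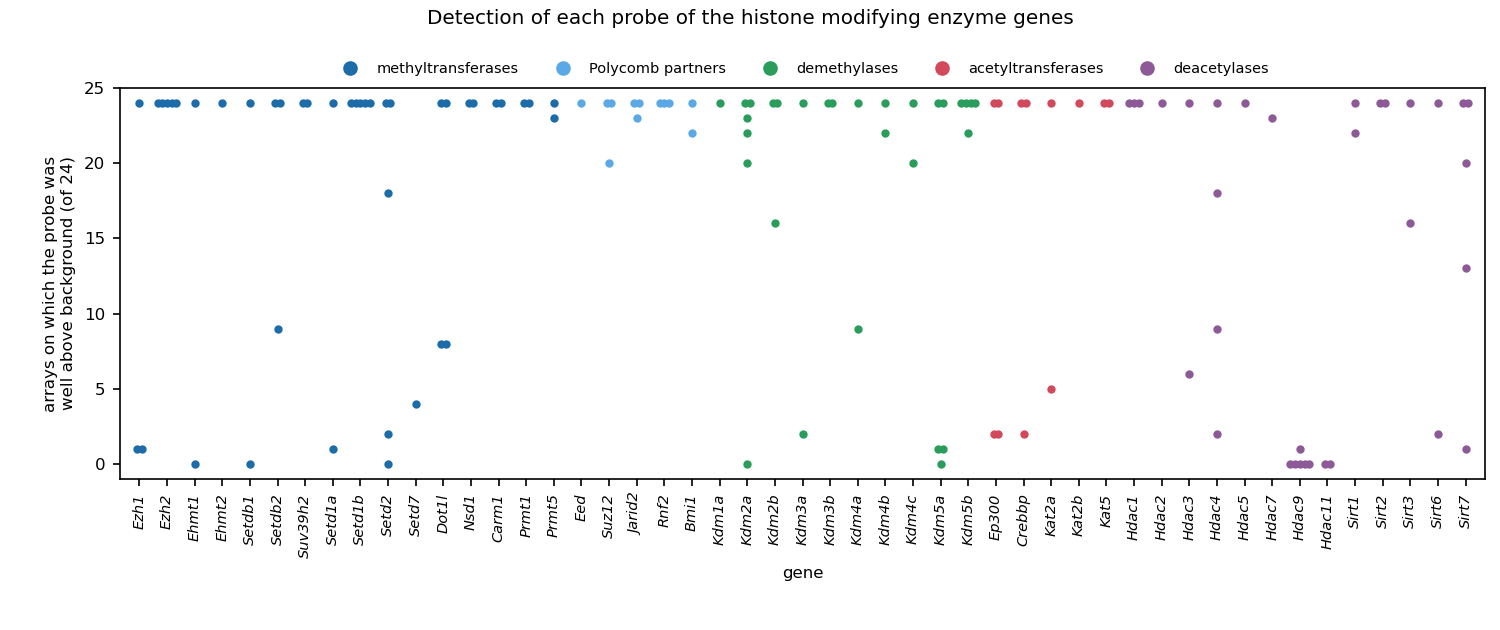
Each point is one of the 130 probes; the vertical axis gives the number of arrays, of 24, on which it was well above background, and genes are grouped and coloured by class. 45 genes have a point at 24, whereas Setd7 reaches 4, Hdac9 reaches 1 and Hdac11 stays at 0.

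Where probes of one transcript differed in detection, the later probe was mostly the better detected. Transcripts whose probes were detected equally are not in this count. An example is Ezh2, whose 5 probes, starting from base 511 to base 2558, were all at 24 arrays. The share over all genes of the array was not counted. For 15 reference transcripts the members' probes were detected on unequal numbers of arrays, and in 14 of them the probe that started last in the transcript was well above background on more arrays than the one that started first. The exception was Hdac9, with 1 array for the first probe and 0 for the last. The widest case among the methyltransferases was Setd1a, whose probes are shown because they report the same transcript from near its opposite ends. The first 30 of their 60 bases are printed 5′ to 3′ as in the array's annotation, which places both on the plus strand.
Setd1a probe from base 464, well above background on 1 array, at chr7:134923977-134924036 (mm9): ttcctgaaggatatgtgccggaaatatgga
Setd1a probe from base 5838, well above background on 24 arrays, at chr7:134943541-134943600 (mm9): gcaggcccttcttgttgggctggattgtac

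In 2 members the brightest probe held a long run of short tandem repeats. These are Suv39h2, a methyltransferase that builds silent heterochromatin, and Crebbp, which encodes the acetyltransferase CBP; they fall outside the rule for members given in full and were chosen after their probes had been seen, Suv39h2 wholly and Crebbp for its repeat. The stretches are shown beside the next brightest probe of the same gene, again as the first 30 of 60 bases, all on the minus strand, because the repeats bear on what these probes can report. Capitals mark repeats of a 2-base unit in at least 4 copies or of a 3-base unit in at least 3 copies.
Suv39h2 brightest probe, at chr2:3373186-3373245 (mm9): ttcgggGTGTGTGTGTcTGTGTGTGTGTGT
Suv39h2 second probe, at chr2:3375194-3375253 (mm9): tagaagtctatagtggctggccattgtgct
Crebbp brightest probe, at chr16:4084710-4084769 (mm9): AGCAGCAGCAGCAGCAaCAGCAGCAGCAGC
Crebbp second probe, at chr16:4094241-4094300 (mm9): tgtcggaatctttcccatatcgtaccaaag

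Over its full length the brightest Suv39h2 probe held 23 such bases and the brightest Crebbp probe 43. They were the 2 of 130 member probes, or 1.54%, with at least 20 repeat bases, and 0.343% of all 56605 probes had as many. Their values did not follow those of the second probes: over the 24 pools, after subtraction of the condition means, the correlation between both probes was 0.05 for Suv39h2 and 0.20 for Crebbp. Among the 23 members with a second probe well above background on all arrays, the median of this correlation was 0.28 and its range ran from -0.34 for Kdm5b to 0.91 for Carm1. The median over 3651 genes was 0.38. Whether the repeat probes also caught other transcripts was not tested.

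The first comparison asked whether any member differed among the 6 conditions. None of the 47 passed the limma F-test after Benjamini-Hochberg adjustment over all genes (background: 0.0% of 18397 genes called), and the adjusted p of every tested member was 1. At an unadjusted p under 0.05 there were 0 members, against 2.12% of all genes. The 2 members of smallest p in each class were Setd7 and Prmt5, Bmi1 and Eed, Kdm5b and Kdm4b, Ep300 and Kat2a, and Sirt3 and Hdac5.

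The members also varied little between pools of one condition. The pooled SD within a condition had a median of 0.20 log2 over the 47 members, against 0.28 over all genes tested and 0.23 over the 14678 genes whose probe was well above background on at least 20 arrays. It was 0.15 for the Polycomb partners, 0.19 for the methyltransferases, 0.19 for the demethylases, 0.23 for the deacetylases and 0.29 for the acetyltransferases. The extremes were Prmt5 at 0.10 and Setd7 at 0.65. Without HC5 replicate 4 the median was 0.18 for the members and 0.26 for all genes, and it fell to 0.19 for the deacetylases, against 0.23 with that pool.

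Each condition was next set against the other 5. No member passed in any of the 6 conditions (background: 0.0% of 18397 genes called in each), and the smallest adjusted p of any member was 0.848, in HC5. At an unadjusted p under 0.05 there were 0 members in HC1, HC2, HC3 and HC4, where 3.29%, 2.27%, 1.65% and 1.83% of all genes reached that level. There were 3 members in HC5, namely Bmi1, Kdm5b and Kdm4b, where 5.75% of all genes did, and 3 in HC6, namely Prmt5, Ehmt2 and Setd7, where 3.0% did. Without HC5 replicate 4 the member in HC5 was Hdac5 alone, with 2.94% of all genes, and its HC5 difference was -0.28, against -0.13 with that pool. The F-test then had 1 member at that level, Hdac5, with 2.02% of all genes. HC1 had 1, Setd1a, with 3.82% of all genes, HC2 had 1, Kdm1a, with 3.0%, HC3 and HC4 had 0, and HC6 had 4, Ehmt2, Hdac5, Prmt5 and Setd7, with 3.13%. No member passed the adjusted threshold in these fits. In none of 282 combinations of member and condition did the 4 pools lie wholly above or below the other 20 (background: 0.00367% of 108852 combinations over all genes without a missing value).

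By the brightest probe, the data bounded the size of a difference closely for most members. The intervals do not cover disagreement between probes of one gene. Counting members whose whole 95% interval stayed inside a 1.5-fold rise or fall gave, for HC1 to HC6 in order, 45, 41, 45, 46, 44 and 45 of 47. The background shares of all genes were, in that order, 67.5%, 67.8%, 69.0%, 67.3%, 64.1% and 66.3%. For the 110 other enzymes and complex subunits listed further below, the shares ran from 85.5% in HC2 to 87.3% in HC4. All genes tested include more dim probes than the members do. The HC5 count without HC5 replicate 4 was 45 of 47, against 63.5% of all genes. Within a 2-fold change lay 46 or 47 of the 47 members in every condition, and Setd7 was the exception in HC1, HC2, HC3 and HC6. The median standard error of a difference was 0.11 log2 for the members and 0.15 for all genes.

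Among the methyltransferases, the lowest p in HC6 belonged to Prmt5, a symmetric arginine methyltransferase needed by the early embryo. Its signal was 2.51, 2.58, 2.49 and 2.23 in the 4 HC6 pools, against a lowest of 2.49, a median of 2.62 and a highest of 2.90 in the other 20. All 4 HC6 pools lay below the mean of the others, with HC6 replicate 4 lowest, yet the groups overlapped. The difference was -0.17 log2 (95% interval -0.31 to -0.04, adjusted p = 1). It ran from -0.44 to -0.06 within slides, was -0.10 without HC6 replicate 4, and was -0.05 with the mean of its kept probes.

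Ehmt2, which encodes the silencing methyltransferase G9a, had signals of 5.28, 5.29, 5.05 and 5.23 in HC6, against 5.11, 5.38 and 5.61 as lowest, median and highest of the other 20 pools. The HC6 pools were again all below the mean of the others, and the groups overlapped. The difference was -0.17 (interval -0.32 to -0.02, adjusted p = 1), with values of -0.21 to -0.15 within slides. Its partner Ehmt1 had a pooled SD of 0.21 and a 1.66-fold range over the 24 pools.

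Setd7 had signals of -3.63, -2.67, -3.28 and -2.96 in HC6, against a lowest of -5.31, a median of -3.82 and a highest of -2.85 in the other pools. Only 1 of the 4 HC6 arrays and 3 of the 20 others had the probe well above background, so these values mostly order background signals. The fitted difference of 0.81 (interval 0.10 to 1.53, adjusted p = 1) was 0.12 after normexp background correction and quantile normalization.

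Setd1b, a methyltransferase of active promoters, was the member of smallest p in HC1. Its signals were 2.10, 1.84, 1.91 and 1.90 in HC1, against 1.54, 1.83 and 1.93 as lowest, median and highest of the other 20 pools. All 4 HC1 pools were above the mean of the others and overlapped with them, and the difference was 0.14 (interval -0.01 to 0.29, adjusted p = 1). With the second brightest of its 5 probes, all 5 of which were well above background on every array, the difference was -0.14. With the mean of its kept probes it was 0.08, and without HC1 replicate 1 it was 0.09.

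Setd1a, the close relative of Setd1b, varied most among the methyltransferases detected on all arrays, with a 3.51-fold range. Its signals in HC5 were 1.69, 1.56, 1.43 and 2.95, against a lowest of 1.14, a median of 1.54 and a highest of 2.30 in the other 20 pools. HC5 replicate 4 alone lay above all others, and the HC5 difference of 0.35 (adjusted p = 0.848) was 0.00 without it. The remaining methyltransferases, among them Ezh1 and Ezh2 of the Polycomb complex, Dot1l, Nsd1, Carm1 and Prmt1, had ranges between 1.36-fold for Nsd1 and 2.12-fold for Setd2. In HC5 the lowest signals of Setdb1, 0.27, and Setd2, 2.64, both came from replicate 4; the HC5 differences were -0.23 and -0.21 with that pool and -0.06 and -0.05 without it.

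Of the Polycomb partners, Bmi1 had the smallest p in both HC4 and HC5. It encodes a RING finger subunit of the Polycomb complex that ubiquitinates histones. Its signals were 1.35, 1.27, 1.5 and 1.46 in HC4, against 0.85, 1.23 and 1.48 as lowest, median and highest of the other pools, and the difference was 0.17 (interval -0.01 to 0.36, adjusted p = 1). In HC5 they were 1.11, 1.14, 1.22 and 0.85, against 1.03, 1.29 and 1.5 in the other 20. The HC4 pools all lay above the mean of the others and the HC5 pools all below it, with overlap in both cases. The HC5 difference was -0.20 (interval -0.39 to -0.02, adjusted p = 0.848), and without HC5 replicate 4 it was -0.13. With the mean of its kept probes the HC4 difference was 0.01.

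Eed, the subunit of the Polycomb methyltransferase that reads its own mark, was at 4.34, 4.45, 4.60 and 4.22 in HC5, against 4.24, 4.57 and 4.81 as lowest, median and highest of the other 20 pools. Of the HC5 pools 3 lay below the mean of the others, with replicate 4 the lowest of all 24, and the difference was -0.14 (interval -0.32 to 0.04, adjusted p = 0.851), or -0.08 without HC5 replicate 4. Suz12, another core subunit, had its lowest signal of 24, 2.50, in HC5 replicate 4, while Jarid2, which recruits the complex, had its highest there, 4.28. Rnf2, the catalytic partner of Bmi1, had the smallest pooled SD of the class, 0.13.

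The demethylase of smallest p in HC2 was Kdm1a, the flavin-dependent lysine demethylase LSD1. Its signals were 3.38, 3.24, 3.26 and 3.62 in HC2, against a lowest of 3.39, a median of 3.51 and a highest of 3.70 in the other 20 pools. Of the HC2 pools 3 lay below every other pool and replicate 4 lay among the highest. The difference was -0.15 (interval -0.31 to 0.01, adjusted p = 0.999). Without HC2 replicate 4 it was -0.23 (adjusted p = 0.974), and within slides it ran from -0.31 to 0.14.

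Kdm5b and Kdm4b had the smallest p of the demethylases in HC5. Kdm5b, which removes methyl groups from active promoters, had signals of 4.25, 4.38, 4.49 and 4.06 in HC5, against 4.23, 4.48 and 4.82 as lowest, median and highest of the others. Kdm4b, a demethylase of silencing marks, had 0.02, -0.07, 0.23 and 0.90 in HC5, against -0.38, 0.02 and 0.27 in the other 20 pools. For both genes HC5 replicate 4 was the pool outside the range of the others. The Kdm5b difference was -0.18 (interval -0.35 to -0.01, adjusted p = 0.848) and -0.10 without that pool. The Kdm4b difference was 0.29 (interval 0.00 to 0.58, adjusted p = 0.848) and 0.08 without it. Over the 10 demethylases the ranges lay between 1.37-fold for Kdm1a and 2.56-fold for Kdm2a, and Kdm2b had its lowest signal, 3.40, in HC5 replicate 4, with an HC5 difference of -0.19 with that pool and -0.02 without it.

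The acetyltransferase of smallest p in HC3 was Ep300, which encodes p300, a coactivator that acetylates histones at enhancers and promoters. Its signals were -0.43, -0.62, -0.84 and -1.09 in HC3, against a lowest of -0.81, a median of -0.46 and a highest of 0.48 in the other 20 pools. The HC3 pools were at or below the mean of the others, and 2 of them lay below all others. The difference was -0.32 (interval -0.65 to 0.01, adjusted p = 1). It was -0.20 without HC3 replicate 4, ran from -0.60 to -0.04 within slides, and was -0.10 with the mean of its kept probes and 0.11 with its second probe.

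Kat2a, the acetyltransferase GCN5, had signals of 1.53, 1.72, 1.48 and 2.31 in HC5, against 1.32, 1.52 and 1.76 as lowest, median and highest of the others. HC5 replicate 4 alone was above the range, and the difference of 0.22 (interval -0.01 to 0.46, adjusted p = 0.848) was 0.04 without it. Kat5, known as TIP60, was the steadiest acetyltransferase with a 1.35-fold range over the pools, and Kat2b, known as PCAF, spanned 3.08-fold with its highest signal, -0.81, in HC1 replicate 2. The 95% interval of the HC2 difference lay within 1.5-fold for 2 of the 5 acetyltransferases, the smallest share of any class and condition.

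Among the deacetylases, Sirt3, a sirtuin of the mitochondrion that depends on NAD, had signals of 1.47, 1.58, 1.04 and 0.41 in HC5, against 0.91, 1.48 and 1.76 as lowest, median and highest of the other 20 pools. HC5 replicate 4 was the lowest of all and 2 HC5 pools lay near the median of the others. The difference was -0.32 (interval -0.67 to 0.02, adjusted p = 0.848) and -0.09 without that pool, and it was -0.20 with the mean of its kept probes. Hdac5, a class IIa deacetylase, had signals of 1.46, 0.92, 1.23 and 1.09 in HC6, against 0.91, 1.43 and 1.70 in the other pools. Of the HC6 pools 3 lay below the mean of the others, and the difference was -0.24 (interval -0.47 to 0.00, adjusted p = 1), with a change to -0.33 without HC6 replicate 1 and -0.15 without HC6 replicate 2.

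Hdac1, Hdac2 and Hdac3, the class I enzymes of the nuclear corepressor complexes, had ranges of 1.60-fold, 2.23-fold and 2.38-fold over the 24 pools. HC5 replicate 4 gave the lowest Hdac1, 4.57, the lowest Hdac2, -2.23, and the highest Hdac3, 1.28. For Sirt1, the nuclear sirtuin, it gave the lowest signal, 1.44, and the HC5 difference was -0.16 with it and 0.02 without it. Sirt2, Sirt6 and Sirt7 had ranges of 1.69-fold, 1.46-fold and 1.44-fold. The class IIa enzymes Hdac4 and Hdac7 spanned 2.50-fold and 2.53-fold.

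The arrays lay on 3 slides, each with 1 or 2 pools of every condition, so the differences were also taken within slides. Those of Setd1b in HC1 (0.10 to 0.14), Setd7 in HC6 (0.28 to 0.97), Hdac5 in HC6 (-0.33 to -0.06) and Bmi1 in HC4 (0.01 to 0.23) kept their direction on all 3 slides. In HC5, those of Bmi1 (-0.38 to -0.06), Eed (-0.17 to -0.12) and Kdm5b (-0.20 to -0.12) did so too. The HC5 differences of Kdm4b (-0.04 to 0.61), Kat2a (-0.10 to 0.41) and Sirt3 (-0.80 to 0.09) did not, and the slide that held HC5 replicate 4 was the third.

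**Figure D3:**
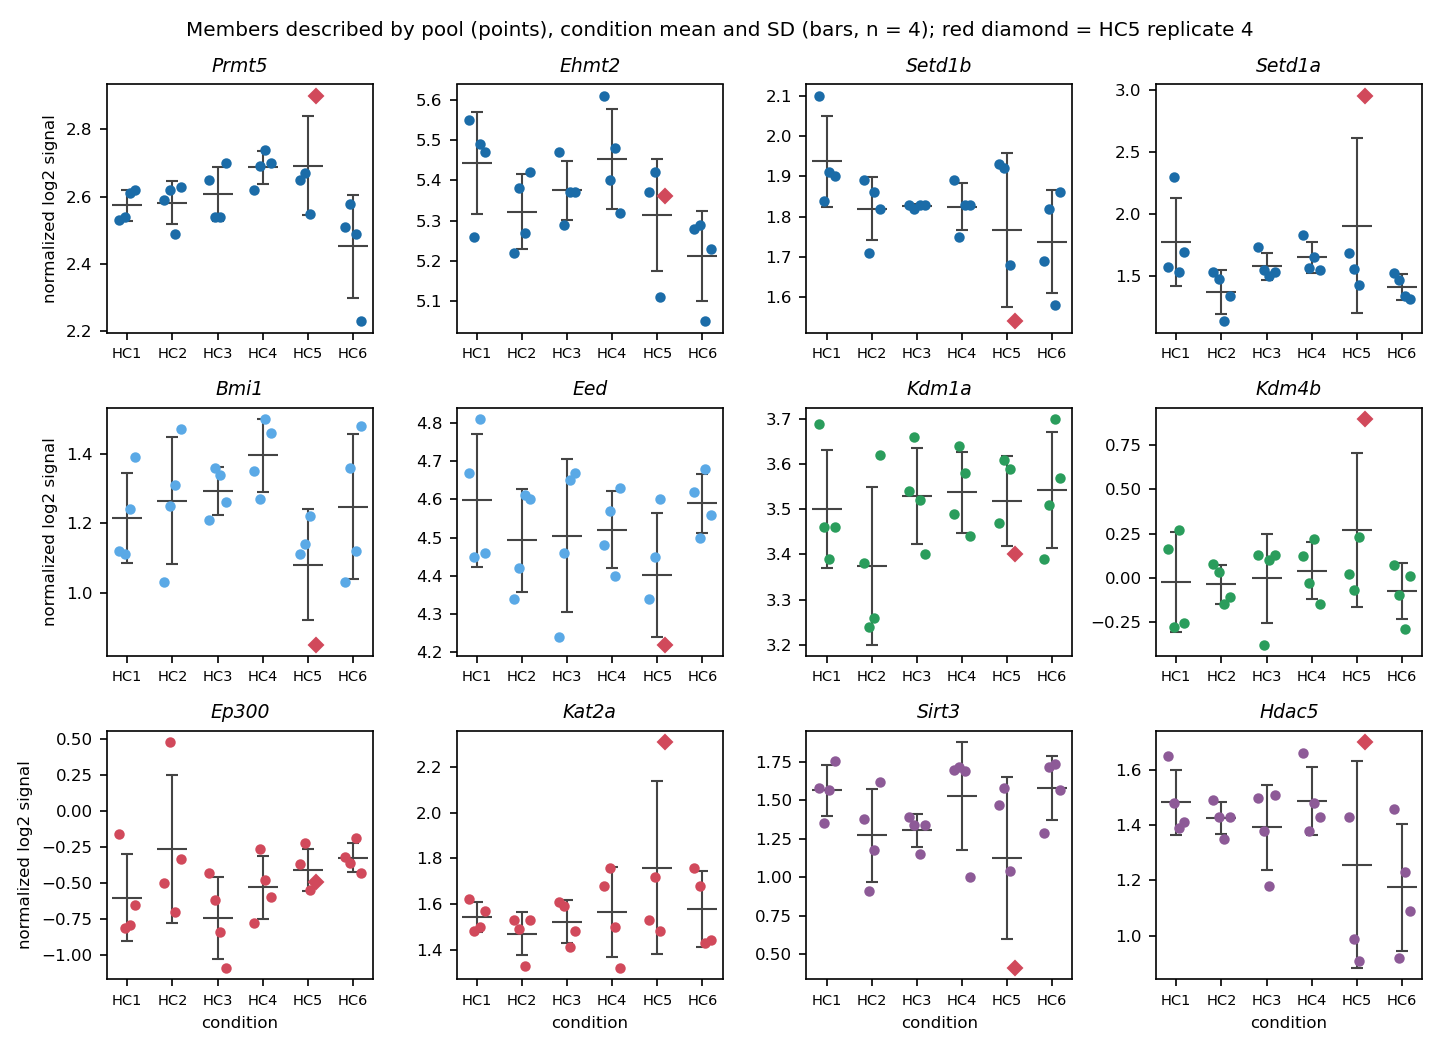
Normalized log2 signal (vertical axis, scaled separately in each panel) of 12 members by condition; points are pools, bars the mean and SD of the 4 pools, and the red diamond is HC5 replicate 4. That pool is the highest of all for Setd1a, Kdm4b, Kat2a, Prmt5 and Hdac5, at 2.95, 0.90, 2.31, 2.9 and 1.7. It is the lowest of all for Sirt3, Setd1b, Bmi1 and Eed, at 0.41, 1.54, 0.85 and 4.22. In every panel the 4 pools of each condition overlap with the rest.

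The classes were then compared by the median difference of their tested members, as a description with no test. All medians lay between -0.13, for the Polycomb partners in HC5, and 0.08, for the methyltransferases in HC4, and the median over all genes lay between -0.02 and 0.03. In HC1 the medians were 0.03 for the methyltransferases, 0.03 for the demethylases, -0.06 for the acetyltransferases and 0.00 for the deacetylases. In HC2 they were -0.04, -0.06, 0.02 and -0.04, and in HC3 0.00, 0.04, -0.05 and -0.02, in the same order of classes. In HC4 they were 0.08, 0.03, -0.01 and 0.06, in HC5 -0.08, -0.01, 0.04 and -0.07, and in HC6 0.02, 0.04, 0.01 and 0.03.

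The SD between the class medians of the 4 single pools of a condition was of the same order as these values, for example 0.12 for the methyltransferases in HC1. It ran from 0.06, as for the demethylases in HC4, to 0.16, as for the deacetylases in HC5. This SD describes single pools and is not the uncertainty of a condition median or of a gap between classes. No difference between classes that add and remove a mark was tested. Without HC5 replicate 4 the HC5 medians were -0.01 for the methyltransferases, -0.08 for the Polycomb partners, 0.00 for the demethylases, 0.03 for the acetyltransferases and -0.05 for the deacetylases.

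With the brightest probes and the 75th percentile, the widest departure from an even split of directions was in HC4. There 38 of 47 members were higher than in the other conditions, against a background of 61.8% of all genes, and 15 of the 16 methyltransferases were higher, with a median of 0.08 against 0.03 for all genes. Of the 110 other enzymes and complex subunits listed further below, 80 were higher in HC4 and 52 in HC6. Their HC4 median was 0.06, against 0.05 for the members, so the HC4 direction was not particular to the members. The signals of the methyltransferases moved together between pools within conditions, with a mean correlation of 0.29, so their directions are not separate observations. The HC4 split of the members depended on the scaling and on the probe. It was 34 of 47 after normexp and quantile normalization and 32 of 47 after quantile normalization of the processed signal, against 56.3% of all genes in both, and 32 of 46 in the authors' deposited table, against 51.7%. With the percentile taken over probes well above background on all 24 arrays it was 26 of 47, against 46.9% of all genes, and HC6 was then the widest with 33 of 47, against 49.7%. With the second probes it was 28 of 47, or 59.6%, against 59.4% of all genes, and with the mean of kept probes 31 of 47, against 59.8%. In the last of these settings HC5 was the widest, with 10 of 47 members higher, against 46.5% of all genes. In HC2, 16 of 47 members were higher, against 43.2% of all genes, in HC5 17 of 47 against 46.9% (20 of 47 against 52.3% without HC5 replicate 4), and in HC6 31 of 47 against 48.6%. In HC1 and HC3 the counts were 24 and 22 of 47, against 47.7% and 54.4%. After normexp and quantile normalization the HC6 count was 31 of 47, against 48.6% of all genes. After quantile normalization of the processed signal it was 32 of 47 against 50.5%, the same count as in HC4 there. In the authors' deposited table it was 31 of 46 against 49.7%. The HC6 count depended on the probe too. It was 24 of 47 with the second probes and 25 of 47 with the mean of kept probes, against 46.6% of all genes in both.

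**Figure D4:**
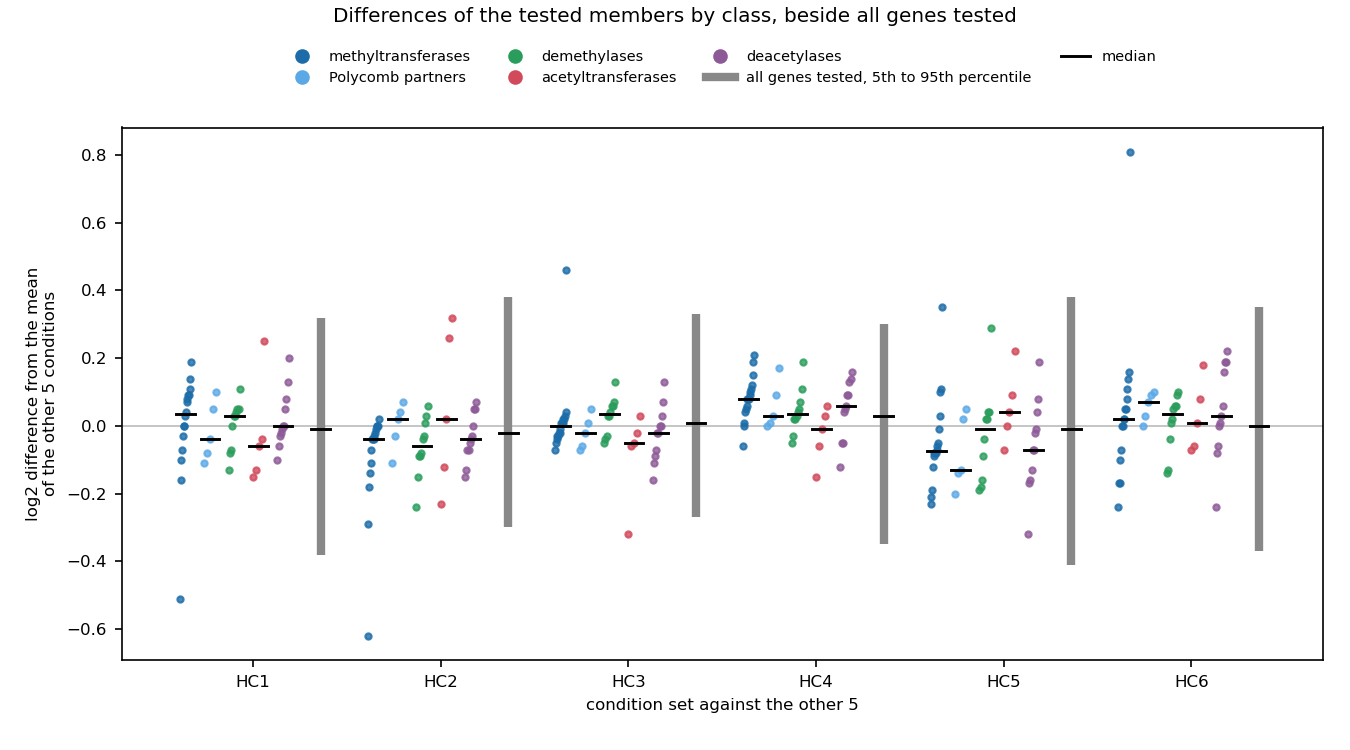
Log2 difference of each condition from the mean of the other 5 for every tested member (points, by class, with black bars at the class medians), beside all genes tested (grey bars from the 5th to the 95th percentile, black bar at the median). Between 45 and 47 of the 47 members lie inside the grey range in every condition, and those outside it are Setd7 in HC1, HC2, HC3 and HC6 and Ep300 in HC3.

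The third comparison took the 15 pairs of conditions together. Of 705 combinations of member and pair, 0 passed in the limma fit (background: 0.0% of 275955 combinations), and 16 had an unadjusted p under 0.05, which is 2.27% against 2.89% over all genes. The smallest p values belonged to Prmt5 between HC5 and HC6, with a difference of 0.24, and to Bmi1 between HC4 and HC5, with a difference of 0.31 (adjusted p = 1 each). HC1 against HC6 held 4 of 47 members, with 3.09% of all genes, HC5 against HC6 held 4, with 4.72%, HC4 against HC6 held 3, with 1.99%, and 7 of the 15 pairs held 0. Leaving out HC5 replicate 4 again gave 16 of 705, against 2.78% over all genes, with 5 in HC1 against HC6 and 1 in HC5 against HC6. The difference of Prmt5 between HC5 and HC6 was then 0.17, and that of Bmi1 between HC4 and HC5 was 0.24. The largest pair difference among those 16 was that of Setd7 in HC2 against HC6, -1.20, which rests on background signals.

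Between pools, the values of some members moved together within conditions. These correlations are over 24 pools after subtraction of the condition means, they are given as a description, and both genes of a pair share the array, its labelling and its scaling. Over all pairs of genes the mean correlation was 0.02. Among the members it was 0.10, with the 0.29 given for the 16 methyltransferases, 0.14 for the demethylases, 0.12 for the acetyltransferases, 0.08 for the Polycomb partners and 0.04 for the 10 deacetylases without a missing value. All genes include a larger share of dim probes than the members. The mean over genes of like detection was not computed, so these values are not shown to be particular to the members. Without HC5 replicate 4 the means were 0.12 for all members, 0.31 for the methyltransferases, 0.22 for the Polycomb partners and 0.09 for the deacetylases.

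Of 24 listed pairs of paralogs or complex partners, the highest correlation was that of Ep300 with Crebbp, which encode the related coactivators p300 and CBP. It was 0.76 by Pearson and 0.69 by Spearman, 0.58 without the 2 pools farthest from the median of Ep300, and 0.61 in the authors' deposited table. HC2 replicate 2 had the highest signal of the 24 pools in both genes, 0.48 for Ep300 and 5.44 for Crebbp. The Crebbp values come from the repeat probe. With the second Crebbp probe, which was also well above background on all arrays, the correlation with Ep300 was 0.10. The brightest Ep300 probe also did not follow the second Ep300 probe. Their correlation was -0.17, against 0.20 between the brightest and second Crebbp probes. The Ep300 probe used here, shown for comparison with the Crebbp probes, held 0 repeat bases and lies on the plus strand.
Ep300 brightest probe, at chr15:81481567-81481626 (mm9): aacaggccagatgaacctgagggataatag

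**Figure D5:**
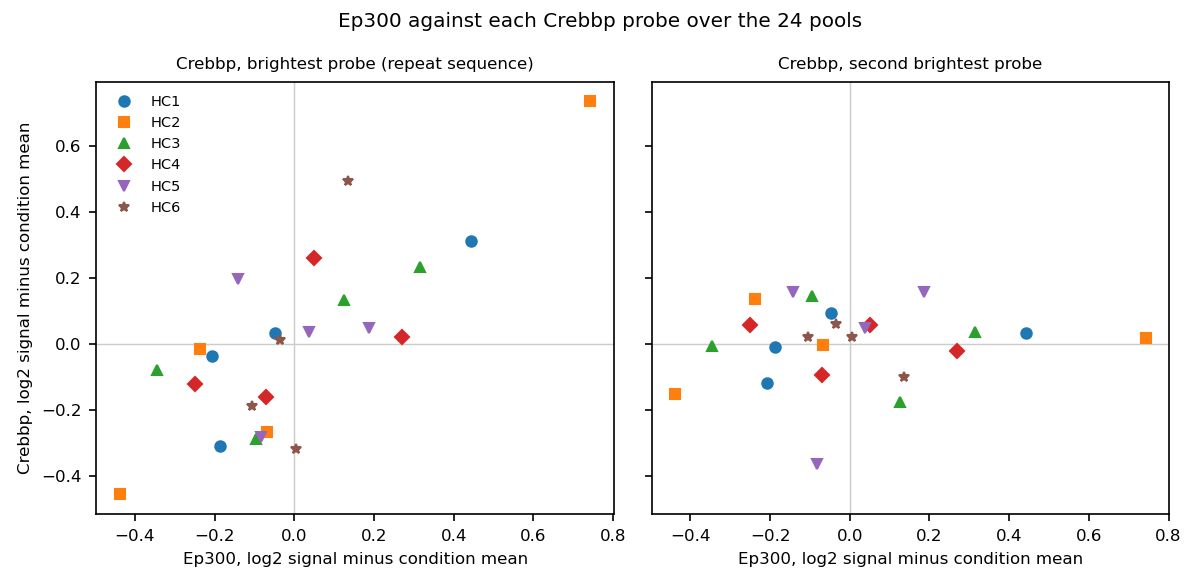
Each point is a pool, with Ep300 on the horizontal and Crebbp on the vertical axis as log2 signal minus the condition mean, for the brightest Crebbp probe (left) and the second (right); symbols give the condition. The correlation is 0.76 on the left, where an HC2 pool lies at the upper right, and 0.10 on the right. Both panels use the brightest Ep300 probe, whose correlation with the second Ep300 probe was -0.17.

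Among the other listed pairs, Hdac2 with Kdm1a, which share the CoREST complex, gave 0.69, and Hdac1 with Hdac2 gave 0.59. Ezh2 with Suz12 gave 0.66, Ezh1 with Ezh2 0.60 and Kdm2a with Kdm2b 0.60. Without HC5 replicate 4 these 5 values were 0.68, 0.41, 0.40, 0.67 and 0.52, and in the authors' deposited table they were 0.44, 0.54, 0.24, 0.23 and 0.29. Hdac1 with Kdm1a, also listed as complex partners, gave 0.50. That value was 0.45 without HC5 replicate 4 and 0.00 in the authors' deposited table. Other partners in one complex gave lower values, with 0.19 for Rnf2 with Bmi1 and 0.15 for Eed with Suz12. Ezh2 with Jarid2, subunit and cofactor of one complex, gave -0.37 over 24 pools and 0.65 without that pool, in which Ezh2 was the lowest and Jarid2 the highest of all. The lowest value, -0.51, was that of Setd1a with Setd1b. It was -0.30 by Spearman, -0.20 in the authors' deposited table and -0.09 without HC5 replicate 4, which had the highest Setd1a and the lowest Setd1b.

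Other enzymes and complex subunits of the same processes were taken from a list of 113 genes. Of these 110 were tested and 97 had a probe well above background on all 24 arrays. Among all 18397 genes tested, 13031 were so with the probe that represented them. None of the 110 passed the F-test (background: 0.0% of all genes called), and 3 had an unadjusted p under 0.05, against 2.12% of all genes. These 3 were Ring1, a ubiquitin ligase subunit of the Polycomb complex, Setmar, a methyltransferase fused to a transposase, and Aebp2, an accessory subunit of the Polycomb methyltransferase (adjusted p = 1 each). The probes of Ring1 and Setmar were well above background on 14 and 7 of 24 arrays, so their values lie partly at background, while Aebp2 had a probe that was so on all 24. Aebp2 falls outside the rule for named genes and is named because it completes the count.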

How the data were processed

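The scanner files deposited by the authors hold linear spot intensity values, per the file headers. The submitters' processing notes name Agilent Feature Extraction 10.10.1.1 and, without a version, limma. The processed intensity was background subtracted and detrended within the array, with low values replaced by a surrogate, and not scaled between arrays, per the file headers. The authors' deposited table gives log2 values of 27101 probes; for all 24 columns the array of highest correlation was the one of the same sample (r from 0.834 to 0.888), its column medians were 7.00 to 7.01, and its exact normalization is not given in the sources used here.

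From the intensity values, control spots and outlier spots were left out, log2 values were averaged over the spots of a probe and the 75th percentile of the array was subtracted. Saturation was recorded on 0 spots. A probe was kept if at least 4 of the 24 arrays had it well above background, with at least 2 values per condition; the brightest kept probe stood for its gene. Gene names follow the array annotation, updated through the RefSeq gene list. Probe positions and the mm9 build are those of the array annotation; exons and untranslated regions were not looked up. One limma model (limma 3.58.1, R 4.3.3, data.table, version 1.17.8) with 6 condition means was fitted over 18397 genes, with eBayes tests and Benjamini-Hochberg adjustment at 0.05, within each contrast and over genes and pairs together for the 15 pairs. Hdac7 has 1 missing value, in HC1 replicate 3, which the fit left out. The number of arrays limits the precision. Tables and figures used Python 3.11.15, numpy 2.4.6, pandas 2.3.3, scipy 1.17.1 and matplotlib 3.10.9. The code was tested on simulated arrays.

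The members, classes and lists were chosen with earlier results of these data known. All members are named. Given in full are the 2 of smallest F-test p per class, the one of smallest p per condition and those with an unadjusted p under 0.05 in a condition. Those whose probes disagree in detection (20 or more arrays against 4 or fewer) and the fixed pairs of highest and lowest correlation are also given. Members outside this rule are named as examples. Alternatives covered background, scaling, filters, probe choice, slide, replicate number, array weights and each array left out; the second brightest probe was added after seeing the data.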

Additional observations from a re-analysis of the deposited data

Results flagged for a closer look

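In groups of 4 pools, a pool was singled out where its gap to the nearest other pool, as a share of the range of the group, exceeded Dixon's critical value at the 95% level, which chance passes in about 1 group in 20. Among the class medians of single pools, given as log2 deviations from the members' means, 5 of 30 groups passed it. The methyltransferases had their highest HC3 median in replicate 1, 0.12, against -0.05 to -0.02 in the other 3 pools, and their lowest HC6 median in replicate 1, -0.09, against 0.04 to 0.05. The demethylases had their lowest HC1 median in replicate 2, -0.17, against 0.05 to 0.07. The acetyltransferases had their lowest HC2 median in replicate 3, -0.19, against -0.02 to 0.01. The deacetylases had their lowest HC4 median in replicate 4, -0.07, against 0.08 to 0.11. Among single members, 17 of 281 groups passed the same value, and 2 of them rest on HC5 replicate 4, for Jarid2 at 4.28 and Setd1a at 2.95. None of the 14 combinations picked by the smallest p of a class or condition, or by an unadjusted limma p under 0.05 in a condition, passed it.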

How the results depend on the processing

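No member passed under any of 36 alternatives, 12 in processing and 24 that left out one array each: the count was 0 in the F-test, in each condition and in the 15 pairs. With the replicate number as a block it was also 0. The labels do not say that a number marks a shared litter or day, and same-numbered pools had a mean correlation of deviations of 0.017 (from -0.324 to 0.338 over 60 pairs). Of these pairs 25 were over 0.1, and 13 of 24 arrays were closest to an array of their own number. Between pools of different numbers the mean was -0.004. All pools numbered 1 lay on slide 1 and all numbered 4 on slide 3, so number and slide cannot be told apart there. The closeness expected without pairing was not computed, so these values cannot decide whether the numbers pair the samples. Since the labels do not say so, the numbers were not taken to pair them. Pairs under 0.1 do not exclude pairing, and the fit with the replicate number as a block covers that case.

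Of the 14 differences described in full, those of Setd1b in HC1 and Ep300 in HC3 turned sign, to -0.14 and 0.11 with the second brightest probe. The correlation of Setd1a with Setd1b was -0.12 without the 2 pools farthest from the median of Setd1a. With the mean of kept probes, the class median was 0.05 for the Polycomb partners in HC1 and 0.17 for the acetyltransferases in HC2, and with the second probe it was -0.10 for the acetyltransferases in HC5. For the deacetylases in HC4 it ran from 0.02 to 0.14 when one array was left out, the highest without HC4 replicate 4. Within slide 1, with 1 or 2 pools per condition, the medians that moved by more than the spread between pools were 0.09 in HC3 and -0.15 in HC6 for methyltransferases, 0.17 in HC4 and -0.07 in HC6 for demethylases, -0.09 in HC5 for acetyltransferases, and -0.08 in HC1 and -0.08 in HC6 for deacetylases. Within slide 2 they were 0.10 in HC5 for methyltransferases, -0.35, -0.13, 0.07, 0.19 and 0.19 in HC1, HC2, HC4, HC5 and HC6 for acetyltransferases, and 0.12, -0.19 and 0.16 in HC1, HC2 and HC4 for deacetylases. Within slide 3 they were 0.09 in HC2 for methyltransferases, 0.05 in HC1 and -0.17 in HC3 for Polycomb partners, 0.15 in HC2 and -0.07 in HC3 for demethylases, -0.14 in HC6 for acetyltransferases and 0.12 in HC2 for deacetylases. The cause was not tested.

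Over all genes, no filter gave 1 call in HC5 and array weights 1 in HC4. Leaving out HC1 replicate 3 gave 1 call in the F-test, 1 in HC1 and 4 in the pairs, HC2 replicate 1 gave 1 in HC2, HC4 replicate 4 gave 2 in HC4 and 3 in the pairs, and HC5 replicate 1 gave 1 in HC5. Dropping the filter moved the median over all genes by up to 0.148, and the other settings by at most 0.042. Signal over background limits Setd7, Hdac9 and Hdac11, and the identity of the conditions limits every comparison.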
